A study of Mus musculus with 4 samples.

Results

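The genes described here are 37 genes of clathrin-mediated endocytosis and endosome recycling, chosen by symbol from the 55487 genes of the deposited tables. All 37 were found with 1 identifier each, and all 37 were among the 27551 genes that passed the filter on low counts. RNA was sequenced from muscle stem cells, also called satellite cells, of Tg:Pax7-nGFP mice, in which Pax7 marks the stem cells of skeletal muscle with a nuclear green fluorescent protein. Minced muscle was exposed during its initial digestion to a vivo-morpholino, an antisense oligomer that enters cells by itself, and the stem cells were isolated afterwards. One morpholino was designed to keep exon 6 out of Numb transcripts and the other was a control. Mouse 1 and mouse 2 each gave 1 library per morpholino, so both groups had 2 libraries from the same 2 mice of the same genotype. The whole tissue met the morpholino before the cells were isolated, and the labels name no dose or time.

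Clathrin-mediated endocytosis takes receptors from the cell surface. The AP-2 complex gathers cargo and recruits clathrin, scaffolds with EH domains and epsins shape the pit, dynamin cuts the vesicle free, and kinases of the Numb-associated family regulate adaptors and the removal of the coat. Small GTPases then mark the compartments of the route: Rab5 the early endosome, Rab4 and Rab11 recycling to the surface, and Rab7 the path to the lysosome. Numb is itself an adaptor of this machinery. It binds AP-2 and EH domain proteins and is known in muscle stem cells as an inhibitor of Notch signalling.

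By edgeR 0 of the 37 genes passed the test between the morpholinos, as did 0% of all tested genes, and the levels were similar in the 4 libraries for most of them. Together the 37 genes summed to 2070, 2160, 2136 and 2110 TPM. Here and below, values in 4 libraries are given in the order control and Numb exon 6 library of mouse 1, then control and Numb exon 6 library of mouse 2. TPM (transcript abundance scaled to a fixed library sum) is scaled to transcript length and is used wherever levels of different genes are compared. CPM (counts scaled to a common library total with TMM factors) is used to compare libraries for the same gene. Levels spanned from 0.150 TPM for Dnm1 to 445 TPM for Cltb, as means of the 4 libraries.

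**Figure D1:**
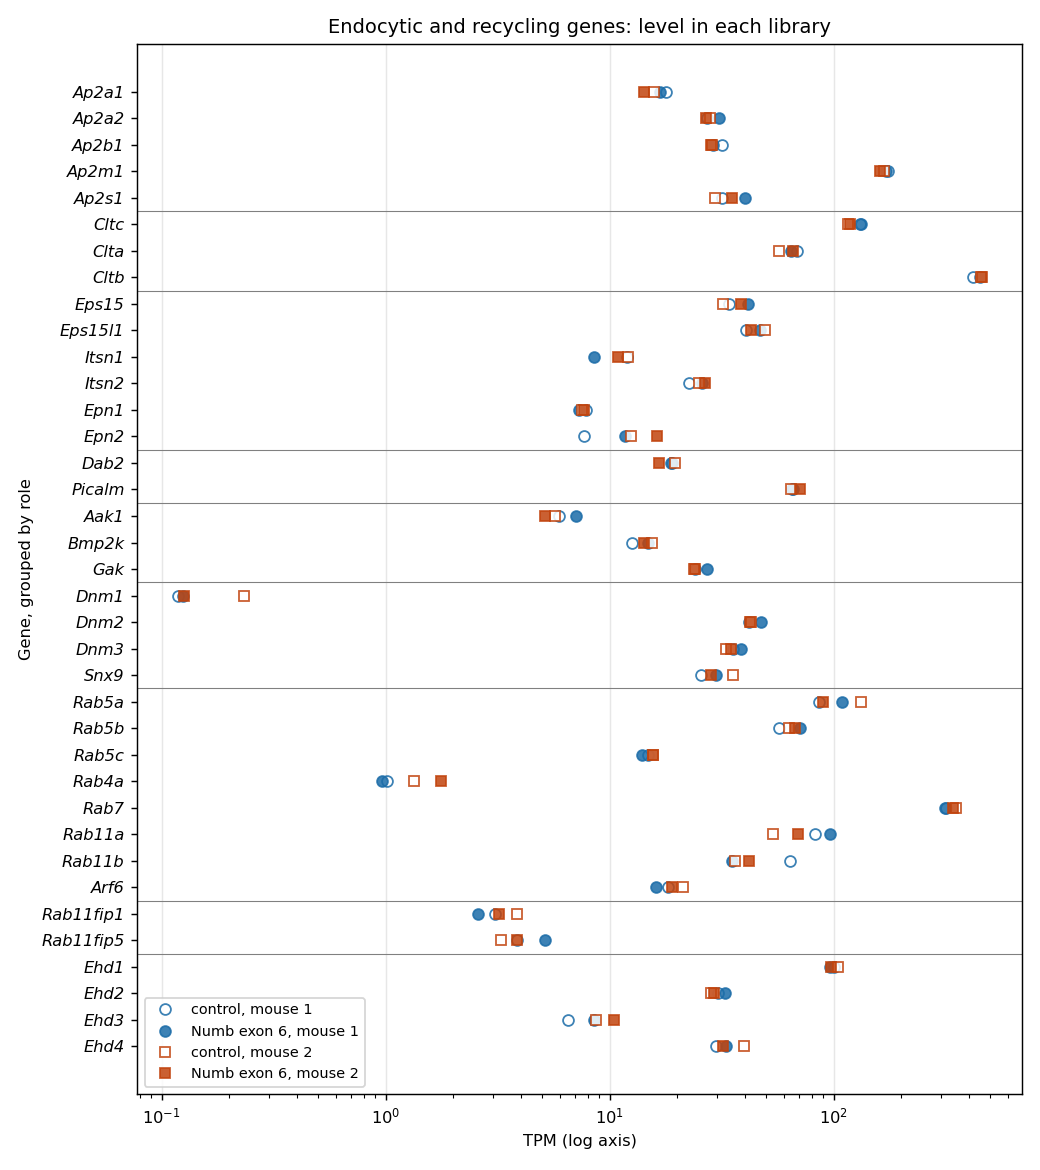
TPM of each of the 37 genes (horizontal log axis) in the 4 libraries, with circles for mouse 1 and squares for mouse 2, open for the control and filled for the Numb exon 6 morpholino; grey lines part the roles. Cltb, Rab7, Ap2m1 and Cltc sit at the right, Dnm1 and Rab4a at the left, and the 4 symbols of most genes lie close together.

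The labelled cell type was checked against markers. The 10 satellite cell markers summed to 10694 to 12543 TPM, led by Sdc4 at 6499 to 7673 TPM. Sums were 1579 to 1788 TPM for 8 markers of fibro-adipogenic progenitors (led by Gsn), 81.1 to 125 TPM for 8 of endothelium (Tek), 93.5 to 138 TPM for 5 of smooth muscle and pericytes (Acta2), 150.2 to 175 TPM for 8 of myofibres (Actn3) and 15.1 to 30.6 TPM for 5 of glia (Mbp). No marker was at 0 in all 4 libraries. Leukocyte markers (10 genes, led by Cd68) summed to 29.7, 39.9, 33.8 and 95.3 TPM, and erythroid markers (3 genes, led by Hba-a1) to 358, 624, 1008 and 1154 TPM. Leukocyte and erythroid sums were higher with the Numb exon 6 morpholino in both mice, as were all the other sums except that of glia. Erythroid sums were higher in mouse 2. Single markers did not all follow. In CPM, markers higher in both mice numbered 6 of 10 for satellite cells, 4 of 8 for endothelium and 3 of 8 for myofibres. They numbered 4 of 8 for fibro-adipogenic progenitors, 4 of 5 for smooth muscle and pericytes and 2 of 5 for glia. For leukocytes they numbered 7 of 10 and for erythroid cells 3 of 3. Lower in both mice were 2 leukocyte markers and 1 marker each of satellite cells, progenitors and myofibres. Of all tested genes, 28.1% were higher and 27.3% lower in both mice. The part of these cell types in the values below was not tested. In these bulk samples fewer cells of a type and less RNA per cell cannot be told apart.

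The AP-2 adaptor is built of alpha, beta, mu and sigma subunits, and its transcripts were not present at equal levels. Ap2m1, which encodes the mu subunit that reads tyrosine-based sorting signals, stood at 174, 171, 167 and 162 TPM. Ap2b1, encoding the beta subunit that binds clathrin, stood at 31.8, 29.0, 28.6 and 28.3 TPM, so that Ap2m1 exceeded it 5.48-fold to 5.91-fold. Ap2s1, for the small sigma subunit, stood at 31.9, 40.0, 29.5 and 35.0 TPM. Of the alternative alpha subunits, Ap2a2 stood at 27.2, 30.9, 28.1 and 26.9 TPM and Ap2a1 at 17.9, 16.7, 15.8 and 14.2 TPM. Ap2a2 was the higher of the pair in 4 of 4 libraries, with 63.7% ± 2.3 (SD, n = 4 libraries) of their sum. The level of Ap2m1 is uncertain because 42.5% of the 50-base windows of its longest coding transcript also occur in transcripts of other genes, above all Gm13509, listed at 43.0 to 53.2 TPM. Of the windows of Ap2a1, 11.2% occur in other models, chiefly Fuz.

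With the Numb exon 6 morpholino the AP-2 genes differed little from the control. Ap2s1 was the only one whose groups did not overlap, at 14.6 and 12.9 CPM with the control against 17.3 and 15.1 CPM, a log2 fold change of 0.23 ± 0.17 (SE, 2 libraries per group; 95% interval from -0.19 to 0.66). Ap2a1 had -0.18 ± 0.18, Ap2b1 -0.12 ± 0.14, Ap2m1 -0.09 ± 0.12 and Ap2a2 0.06 ± 0.13 (SE). In CPM Ap2a1, Ap2b1 and Ap2m1 were lower and Ap2s1 and Ap2a2 higher in both mice, while Ap2a2 had opposite signs in TPM, and none of the 5 passed (edgeR adjusted p = 0.999 for Ap2s1).

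Clathrin is assembled from heavy and light chains. Cltc, the heavy chain and the backbone of the lattice, stood at 131, 132, 115 and 119 TPM. Cltb, one of the alternative light chains, was the most abundant gene of the set at 418, 449.7, 453 and 460.1 TPM, and ranked 296 among the tested genes by mean TPM. Clta, the other light chain, stood at 68.6, 64.1, 57.0 and 65.9 TPM. Cltb made up 87.4% ± 1.2 (SD, n = 4 libraries) of light chain TPM, and light chains exceeded the heavy chain 3.71-fold to 4.43-fold. Neither the groups of Cltc nor those of Clta parted, with log2 fold changes of -0.03 ± 0.14 and -0.04 ± 0.13 (SE). Cltb had -0.11 ± 0.11 (SE) in counts, with 473 and 519 CPM in the controls against 459 and 459.8 CPM, while in TPM it was higher in both mice.

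The EH domain scaffolds Eps15, Eps15l1, Itsn1 and Itsn2 organise the early pit and bind ligands with asparagine-proline-phenylalanine motifs, Numb among them. Eps15l1 stood at 40.7, 46.7, 49.1 and 42.9 TPM and Eps15 at 34.2, 41.4, 32.1 and 38.7 TPM. Their ratio ran from 1.11 to 1.53, with Eps15l1 higher in 4 of 4 libraries. Itsn2 stood at 22.5, 25.9, 24.9 and 26.5 TPM, and Itsn1, its paralogue, at 11.9, 8.53, 12.1 and 10.9 TPM. Itsn2 was 1.89 to 3.04 times as high as Itsn1 in TPM, and 4.22 to 6.88 times in CPM per kb of the longest coding transcript. Itsn1 is a large gene with 31 annotated transcripts of 352 to 14012 nt.

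Eps15 and Itsn1 differed between the morpholinos in opposite directions without overlap of the groups. Eps15 had 64.4 and 56.9 CPM under the control morpholino against 72.3 and 69.6 CPM under the other, a log2 fold change of 0.23 ± 0.13 (SE; 95% interval from -0.09 to 0.55). Itsn1 had 25.1 and 29.3 CPM under the control morpholino against 19.9 and 24.98 CPM under the other, a log2 fold change of -0.28 ± 0.18 (SE; -0.74 to 0.19). The groups of both genes also stood apart in TPM. Neither passed (edgeR adjusted p = 0.999 for each, and 0.796 for each once mice were blocked). Eps15l1 had -0.05 ± 0.13 and Itsn2 0.02 ± 0.14 (SE), and both had opposite signs in the mice in CPM. In TPM Itsn2 was higher in both mice.

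Epsins bend the membrane and carry ubiquitinated cargo. Epn1 stood at 7.84, 7.33, 7.54 and 7.64 TPM. Epn2 (GRCm38 chromosome 11, 61517249 to 61579687) varied most within this group, at 7.69, 11.7, 12.5 and 16.3 TPM, and the order of Epn2 above Epn1 held in 3 of 4 libraries. In counts Epn2 stood at 13.6 and 16.5 CPM in mouse 1 and at 21.7 and 31.2 CPM in mouse 2. It was thus higher with the Numb exon 6 morpholino in both mice, and higher in mouse 2 with both morpholinos, while the control of mouse 2 lay above the Numb exon 6 library of mouse 1.

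Epn2 had a log2 ratio of 0.28 in mouse 1 and of 0.53 in mouse 2. The fitted log2 fold change, the highest of the set, was 0.43 ± 0.38 (SE, 2 libraries per group; edgeR adjusted p = 0.999). Blocking on the mouse gave 0.40 ± 0.14 (SE; edgeR adjusted p = 0.796). The unadjusted edgeR p was 0.30 without and 0.033 with the block. In the fit that does not pair the mice the value became -0.10 when the mouse 2 library with the Numb exon 6 morpholino was left out, and 0.82 when its mouse 1 counterpart was. Leaving out the control of mouse 1 gave 0.14, and leaving out the control of mouse 2 gave 0.80. In that fit the sign of Epn2 thus turned only without the Numb exon 6 library of mouse 2. Leaving out a library unbalances the mice, so the difference of Epn2 between the mice enters these values.

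Of the cargo and assembly adaptors, Picalm, which sizes clathrin coats, stood at 65.1, 65.5, 64.3 and 70.7 TPM. Dab2, an adaptor for receptors of the LDL receptor family, stood at 18.8, 19.0, 19.5 and 16.5 TPM. Their log2 fold changes were 0.06 ± 0.11 and -0.01 ± 0.14 (SE), and each had opposite signs in the mice in CPM. In TPM Picalm was higher in both mice. Of the Numb-associated kinases, Gak, which also aids uncoating with the chaperone Hspa8, stood at 24.0, 27.2, 23.8 and 24.1 TPM. Bmp2k stood at 12.6, 14.8, 15.5 and 14.2 TPM and Aak1, the kinase that phosphorylates the mu subunit of AP-2, at 5.94, 7.09, 5.69 and 5.13 TPM. The order Gak, Bmp2k, Aak1 was the same in 4 of 4 libraries, and Bmp2k was 2.09 to 2.77 times Aak1 in TPM and 3.33 to 4.24 times in CPM per kb of the longest coding transcript. In CPM all 3 kinases were higher in mouse 1 and lower in mouse 2 with the Numb exon 6 morpholino, by at most 0.17 on the log2 scale, and their log2 fold changes lay between -0.01 and 0.05. In TPM Gak was higher in both mice. Bmp2k shares 26.3% of its 50-base windows with other gene models, chiefly the opposite-strand gene Paqr3, and the libraries carry no strand.

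Scission was represented by dynamins and Snx9. Dnm2, the dynamin of most tissues, stood at 41.8, 47.4, 42.8 and 42.1 TPM. Dnm3 (GRCm38 chromosome 1, 161982453 to 162478034), known from brain and testis, stood at 35.5, 38.5, 33.0 and 34.9 TPM. Dnm1, the neuronal dynamin, was at 0.118, 0.124, 0.233 and 0.126 TPM, and its share of dynamin TPM was 0.2% ± 0.1 (SD, n = 4 libraries). In TPM the ratio of Dnm2 to Dnm3 ran from 1.18 to 1.3, and in CPM per kb of the longest coding transcript from 2.38 to 3.18. Of the windows of the longest coding Dnm3 transcript, 4.09% occur in other gene models, all in Gm10176, listed at no more than 0.128 TPM. Dnm3 contains the antisense gene Dnm3os, listed at 3.81 to 5.82 TPM, which shares none of these windows. Reads of the opposite strands cannot be told apart, and whether Dnm3os reads entered other Dnm3 transcripts was not tested.

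Dnm3 went in opposite directions in the 2 units. In counts it had 60.3 and 53.1 CPM under the control morpholino against 53.6 and 44.4 CPM under the other, lower in both mice (log2 fold change -0.21 ± 0.15, SE; edgeR adjusted p = 0.999). In TPM it was higher in both mice, by 0.12 and 0.08 on the log2 scale. Dnm2 had a log2 fold change of 0.06 ± 0.12 and Dnm1 of -0.10 ± 0.50 (SE). Snx9, a membrane-curving nexin that recruits dynamin, stood at 25.7, 29.7, 35.6 and 28.2 TPM, and its log2 ratio was 0.11 within mouse 1 and -0.37 within mouse 2.

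**Figure D2:**
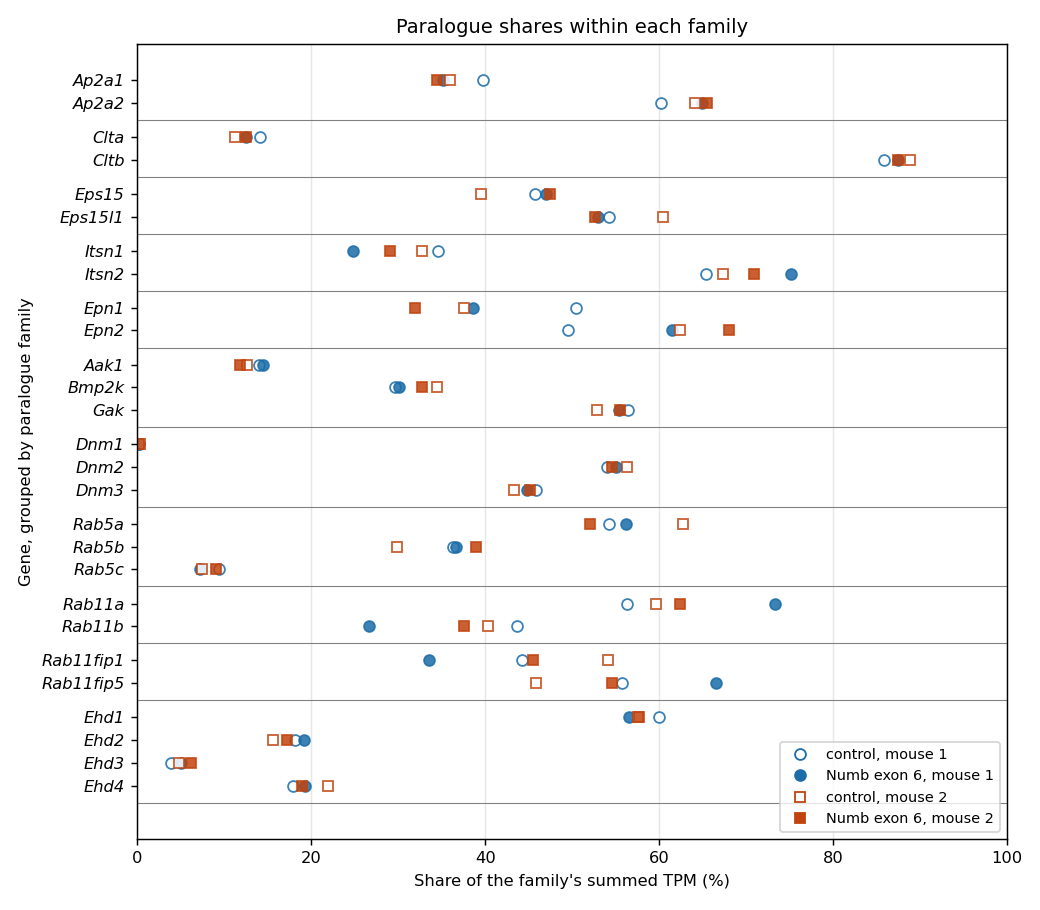
Share of the summed TPM of each of 11 paralogue families (horizontal axis, percent) taken by each gene in the 4 libraries, with symbols as for the levels. Cltb takes 85.9% to 88.8% of light chain TPM and Ehd1 56.6% to 60.0% of EHD TPM, while Epn2 runs from 49.5% to 68.1% of epsin TPM.

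Among the endosomal GTPases Rab7, of late endosomes, was the most abundant at 318, 314, 351 and 339.8 TPM. Its groups did not overlap in CPM, at 366 and 381 under the control against 344 and 363 under the Numb exon 6 morpholino, but the log2 fold change was -0.08 ± 0.10 (SE; 95% interval from -0.34 to 0.18). In TPM the groups of Rab7 overlapped. Of its windows, 16.2% occur in other gene models, led by Rab7-ps1 at 20.4 to 22.9 TPM. Arf6, a GTPase of the plasma membrane and recycling, stood at 18.1, 16.0, 21.2 and 19.0 TPM. Its log2 fold change was -0.22 ± 0.17 (SE), with CPM groups that did not overlap and TPM groups that did. Rab4a, of rapid recycling, was the lowest GTPase at 1.01, 0.967, 1.34 and 1.77 TPM, and its log2 fold change of 0.16 ± 0.42 (SE) had a 95% interval from -0.92 to 1.24.

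The Rab5 paralogues, which act at the early endosome, kept the order Rab5a, Rab5b, Rab5c in 4 of 4 libraries. Rab5a (GRCm38 chromosome 17, 53479234 to 53507680) stood at 85.6, 109, 132 and 90.0 TPM, Rab5b at 57.2, 71.0, 62.9 and 67.5 TPM and Rab5c at 14.9, 14.0, 15.6 and 15.6 TPM. The control library of mouse 2 was the highest for Rab5a. There the ratio of Rab5a to Rab5b was 2.1, against 1.33 to 1.54 in the other libraries. In CPM Rab5a stood at 110.2 and 132 in mouse 1 and at 164 and 109 in mouse 2, so the ratio was 0.26 on the log2 scale within mouse 1 and -0.59 within mouse 2.

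Rab5a was the 1 gene of the set that differed by over 0.25 on the log2 scale in opposite directions in the mice. Of the 8540 tested genes whose mean log2 CPM was at least 3, 3.06% did so, and 34 of the 37 genes reached that level. Its fitted log2 fold change was -0.18 ± 0.22 (SE; edgeR adjusted p = 0.999). Rab5b had 0.14 ± 0.11 (SE), with CPM groups that did not overlap, higher with the Numb exon 6 morpholino, and TPM groups that did not either. Of its windows, 13% occur in other models, led by Gm13991. Rab5c had -0.10 ± 0.16 (SE). The control library of mouse 2 held the highest CPM for 12 of the 34 genes, among them Rab5a, Snx9 and Ehd4, and for 21.1% of the 8540. The Numb exon 6 library of mouse 1 also held the highest CPM for 12 (27.4% of the 8540), the control of mouse 1 for 7 (30.2%) and the Numb exon 6 library of mouse 2 for 3 (21.3%).

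The Rab11 paralogues govern slow recycling from the endosome to the surface, and for each of them 1 feature of the gene models bears on the values. Rab11a (GRCm38 chromosome 9, 64715299 to 64737758) stood at 82.1, 96.6, 53.8 and 69.2 TPM. A microRNA model, Gm47308 (107 nt), lies wholly inside exon 3 of Rab11a. The exon is shown because it makes visible that the model has no sequence of its own. It runs over chr9:64726624-64726817 on the minus strand of GRCm38 (GENCODE vM21) and is coding in the longest Rab11a transcript; capitals mark Gm47308, which fills chr9:64726624-64726730 of it.
Rab11a exon 3: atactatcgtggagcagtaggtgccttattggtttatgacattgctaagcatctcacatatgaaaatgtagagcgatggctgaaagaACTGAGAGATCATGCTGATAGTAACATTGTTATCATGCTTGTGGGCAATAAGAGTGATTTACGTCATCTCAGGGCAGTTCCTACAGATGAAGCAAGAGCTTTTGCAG

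Gm47308 had estimated counts of 1 and 1 in mouse 1 and of 1149 and 904 in mouse 2, which the TPM table lists at 67.4 and 71.0 TPM for mouse 2. Rab11a itself was lower in mouse 2, with a log2 CPM difference (mouse 2 minus mouse 1) of -0.45 with the control and of -0.32 with the Numb exon 6 morpholino. With the counts of Gm47308 added to those of Rab11a the differences were -0.36 and -0.24, so Rab11a remained lower in mouse 2 in both pairs. Each mouse is 1 animal, and no test was made between them. Between the morpholinos Rab11a was higher in both mice, at 94.3 against 83.6 CPM in mouse 1 and 75.8 against 61.1 CPM in mouse 2. The groups overlapped, since both libraries of mouse 1 lay above both of mouse 2. The log2 fold change was 0.23 ± 0.20 (SE; edgeR adjusted p = 0.999). Blocking on the mouse gave 0.24 ± 0.09 (SE; edgeR adjusted p = 0.796).

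Rab11b (GRCm38 chromosome 17, 33742484 to 33760530) stood at 63.6, 35.1, 36.4 and 41.7 TPM, so the control library of mouse 1 stood apart. In counts it did not, at 102, 87.8, 92.8 and 101 CPM. The ratio of count to TPM gives the mean length of the transcripts to which the authors' tool assigned the reads. For Rab11b that length was 2974 nt in the control of mouse 1 and 4903, 4897 and 4752 nt in the other libraries. Annotated Rab11b transcripts run from 503 to 6109 nt, and 14.0% of its windows occur in other models, led by Rab11b-ps2. Its log2 fold change in counts was -0.05 ± 0.13 (SE), while in TPM the log2 ratio within mouse 1 was -0.86 and within mouse 2 was 0.20. Rab11a stood above Rab11b in 4 of 4 libraries in TPM, by 1.29-fold to 2.75-fold.

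**Figure D3:**
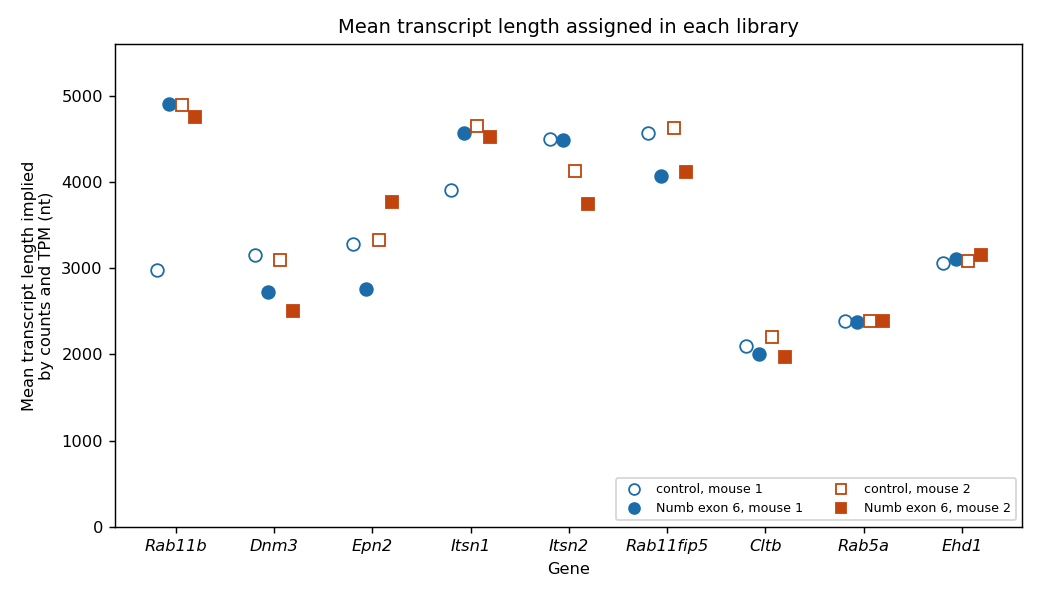
Mean transcript length (nt) implied by counts and TPM for 9 genes in the 4 libraries, with symbols as for the levels. Rab11b has 1 library at 2974 nt and the others between 4752 and 4903 nt. Dnm3, Rab11fip5, Cltb and Itsn2 are shorter with the Numb exon 6 morpholino in both mice, Itsn2 by little in mouse 1. Rab5a and Ehd1 barely vary.

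Shifts of this kind were looked at for all genes with at least 1 TPM in every library, 35 of the 37 among them. Lengths differed by over 1.25-fold between some pair of libraries for Epn2, Dnm3 and Rab11b, 3 of 35, against 7.38% of all such genes. None of the 35 was shifted by over 1.25-fold one way in both mice, which 0.402% of all such genes were. Dnm3 was shorter with the Numb exon 6 morpholino in both mice, from 3156 to 2723 nt in mouse 1 and from 3096 to 2503 nt in mouse 2. Rab11fip5 stood at 4573 and 4625 nt in the controls against 4067 and 4119 nt. For Numb the lengths were 3048, 2971, 2795 and 2870 nt, and its TPM was 27.2, 39.7, 36.99 and 40.2 (log2 fold change in counts 0.27 ± 0.14, SE; edgeR adjusted p = 0.999). These lengths are averages over transcripts and do not show which exons were used.

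The Rab11 effectors Rab11fip1 and Rab11fip5 link Rab11 vesicles to motors and were scarce. Rab11fip5 stood at 3.86, 5.12, 3.28 and 3.84 TPM and Rab11fip1 (GRCm38 chromosome 8, 27138773 to 27174646) at 3.07, 2.58, 3.87 and 3.20 TPM, and their order was not the same in all libraries. Rab11fip1 had the lowest fold change of the set. It had 9.01 and 9.81 CPM under the control morpholino against 6.18 and 7.67 CPM under the other, with no overlap in CPM and with overlap in TPM. Its log2 ratio was -0.54 in mouse 1 and -0.35 in mouse 2. The fit gave -0.44 ± 0.20 (SE, 2 libraries per group; edgeR adjusted p = 0.999), and the fit blocked on the mouse -0.45 ± 0.17 (SE; edgeR adjusted p = 0.796, unadjusted p = 0.049). DESeq2 did not call it either (adjusted p = 0.77, or 0.56 when blocked on the mouse). Rab11fip5 had 0.10 ± 0.22 (SE).

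The EHD ATPases shape recycling tubules. Ehd1, which drives exit from the recycling endosome, led the family at 100.3, 96.6, 105 and 97.5 TPM, 2.63 to 3.31 times the level of the next member in the same library. Ehd4, of early endosomes, stood at 29.9, 32.9, 39.8 and 32.1 TPM and Ehd2, which sits at caveolae, at 30.3, 32.8, 28.4 and 29.2 TPM. These genes could not be ranked, since their ratio ran from 0.987 to 1.40. Ehd3 was the lowest at 6.54, 8.54, 8.72 and 10.4 TPM. It was higher with the Numb exon 6 morpholino in both mice, with log2 ratios of 0.31 and 0.22 (log2 fold change 0.26 ± 0.20, SE). Ehd1 was lower by 0.11 in both mice, with a log2 fold change of -0.11 ± 0.10 (SE) and groups that did not overlap in CPM or TPM. Ehd2 had 0.01 ± 0.13 and Ehd4 -0.15 ± 0.16 (SE).

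**Figure D4:**
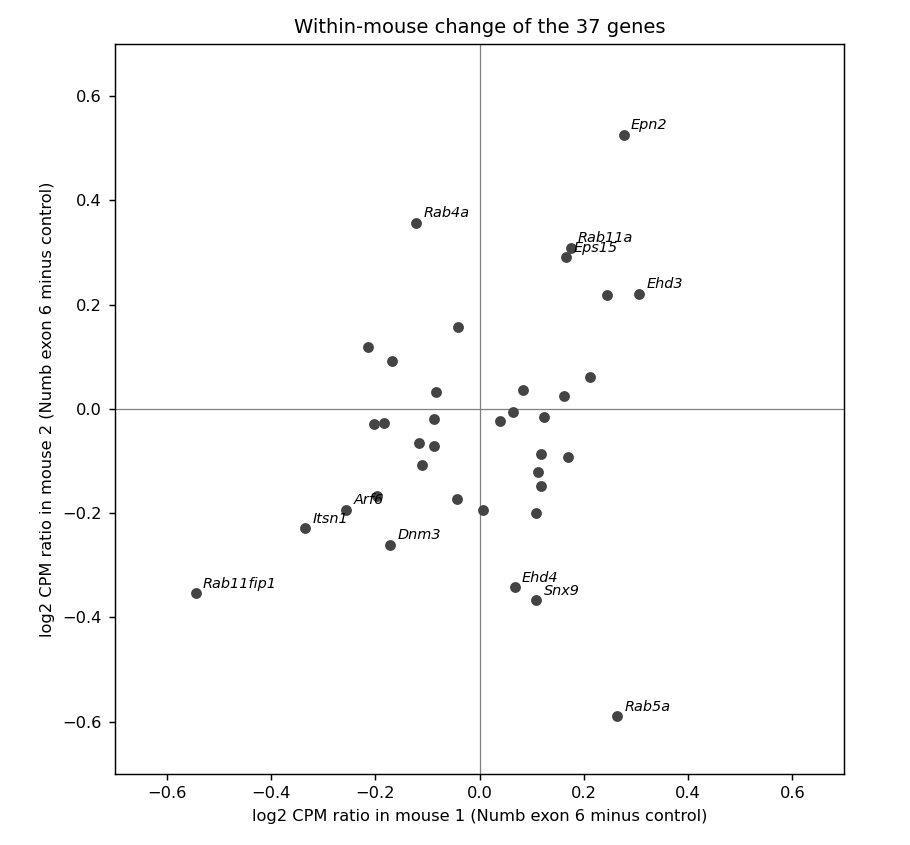
Log2 CPM ratio of the Numb exon 6 to the control library in mouse 1 (horizontal) and mouse 2 (vertical), 1 point per gene for the 37 genes; genes beyond 0.25 in either mouse are named. Epn2 lies at the upper right, Rab11fip1 at the lower left and Rab5a, at 0.26 and -0.59, at the lower right, and most points lie near 0.

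Over the whole set, 8 genes were higher and 12 lower in both mice, and 17 had opposite signs in them, in CPM. That is 21.6%, 32.4% and 45.9%, against 28.1%, 27.3% and 43.9% of all tested genes. Both Numb exon 6 libraries lay above both controls in CPM for 3 genes (Ap2s1, Eps15 and Rab5b) and below for 7 (Cltb, Itsn1, Rab5c, Rab7, Arf6, Rab11fip1 and Ehd1), against 17.4% and 17.1% of all tested genes. In TPM the groups of Ap2s1, Eps15, Rab5b, Itsn1 and Ehd1 also stood apart in the same direction. Those of Cltb, Rab5c, Rab7, Arf6 and Rab11fip1 overlapped in TPM. Only in TPM did Itsn2, Picalm and Gak stand apart, all higher with the Numb exon 6 morpholino. The share of all genes whose groups stood apart in TPM was not counted, so the TPM cases have no background here. No share is read as a property of the set. In TPM, on the log2(TPM + 1) scale, 14 genes were higher and 9 lower in both mice, against 31.9% and 23.4% of all genes, so the balance of the directions depended on the unit. The median log2 fold change was -0.04, against 0.005 for all tested genes, and single values ran from -0.44 to 0.43.

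At an adjusted threshold of 0.05 edgeR called 0 of the 37 genes, and 0 had an unadjusted p under 0.05, against 4.16%. With the mouse as a block 0 passed (0% of all genes) and 2 had an unadjusted p under 0.05, Epn2 and Rab11fip1, against 6.09%. DESeq2 also called 0 of the 37, without and with the block, where it called 0.283% and 0.62% of genes. The SE ran from 0.10 to 0.50, and for 34 of the 37 genes the 95% interval lay within 1 log2 unit of 0 on both sides. The exceptions were Epn2, Dnm1 and Rab4a. With 2 libraries per group, changes within the bounds of these intervals are not excluded. The intervals are not a limit of detection, and larger changes need not have been called either. The intervals are not adjusted for the number of genes, whereas a call needed an adjusted p under 0.05. Over all 27551 tested genes log2 fold changes ran from -9.43 to 10.3, yet edgeR called 0 (smallest edgeR adjusted p = 0.17). The size of change needed for a call was not tested in these libraries. Fits to simulated counts with planted changes were run, and their outcome is not reported here.

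**Figure D5:**
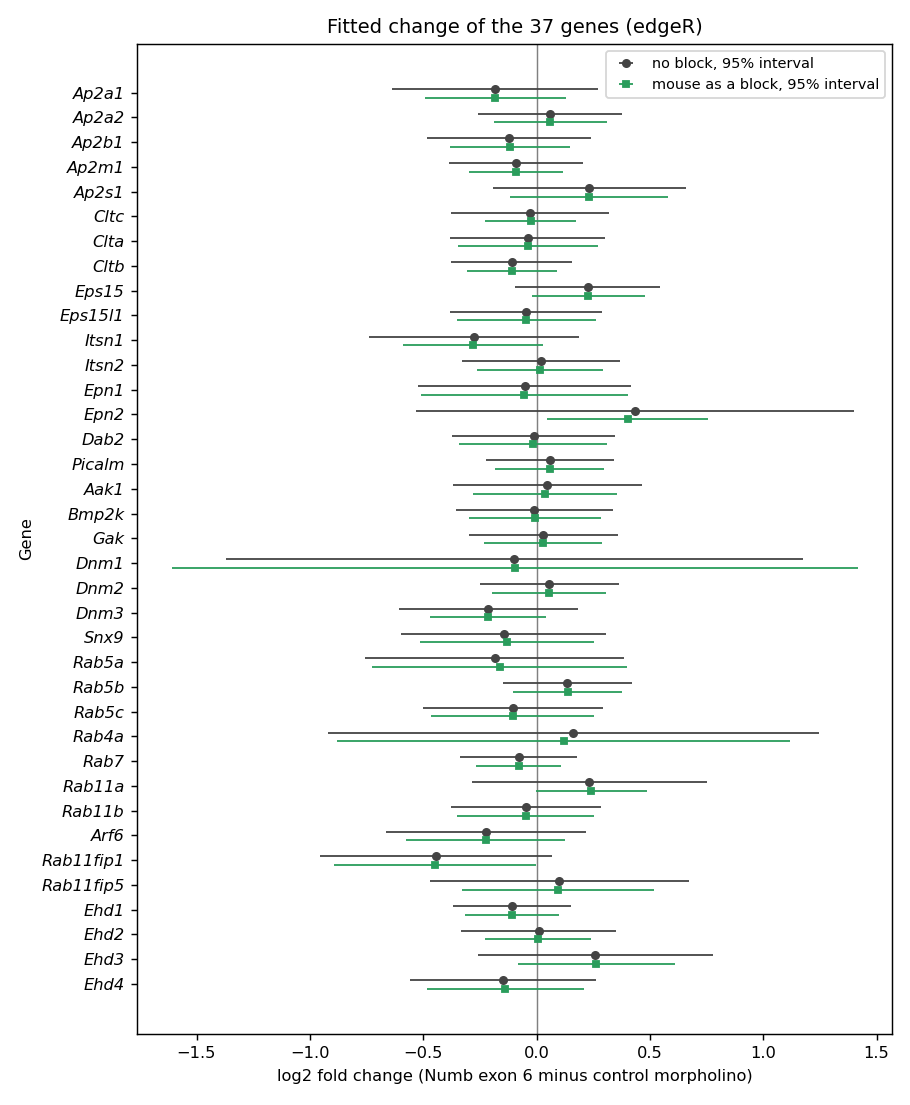
Fitted log2 fold change (Numb exon 6 minus control morpholino) of the 37 genes with 95% intervals from edgeR, circles for the fit without and squares for the fit with a block on the mouse. In the unblocked fit every interval includes 0, and in the blocked fit those of Epn2 and Rab11fip1 do not; the widest belong to Dnm1 and Rab4a.

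The mice differed for a few genes. At a log2 difference over 0.25 with both morpholinos, Epn2 and Ehd3 were higher in mouse 2, 2 of 34 genes, against 7.06% of genes at the same expression level. Rab11a and Rab11fip5 were lower, again 2 of 34, against 8.16%. With the counts of Gm47308 added, Rab11a differed by less than 0.25 with the Numb exon 6 morpholino, which leaves 1 of 34. Epn2 had log2 differences of 0.67 with the control and 0.92 with the Numb exon 6 morpholino, and Ehd3 of 0.37 and 0.28. Rab11fip5 had -0.27 and -0.40. With 1 animal against 1 these values are a description.

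The other genes of the pathway gave the same count of calls. Of 79 further coat, endosome, recycling and cargo genes, all measured, edgeR called 0 in either direction, as it called 0% of all tested genes. In both mice 31 were higher and 18 lower, or 39.2% and 22.8% against 28.1% and 27.3% of all tested genes. Their median log2 fold change was 0.07. The most abundant was Hspa8, the chaperone that strips clathrin from vesicles, at 5138, 5086, 6476 and 4943 TPM, followed by the retromer nexin Snx1 at 149 to 181 TPM, the endophilin Sh3gl1 at 120.1 to 130.1 TPM and Rab10 at 104 to 156 TPM. Their log2 fold changes were -0.26 ± 0.13, 0.19 ± 0.13, -0.08 ± 0.11 and -0.33 ± 0.17 (SE).

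Of the 79 genes, 1 was lower with the Numb exon 6 morpholino at an unadjusted edgeR p under 0.05. Of the 27551 tested genes 457 were, and the count is not read as a result about the 79. Stx6, an endosomal fusion protein, had 108 and 125 CPM under the control morpholino against 95.5 and 74.2 CPM under the other, a log2 fold change of -0.46 ± 0.17 (SE; edgeR adjusted p = 0.999). Its log2 ratio was -0.18 within mouse 1 and -0.76 within mouse 2. In TPM it stood at 57.2, 54.4, 78.7 and 57.3, with overlap of the groups. Stx6 did not pass over all genes.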

How the data were processed

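Estimated counts and TPM per gene were measured in 4 libraries made from 5 ng of RNA each by SMART-Seq2, per the labels' protocols, a method that does not mark strand. The submitters' processing notes name GRCm38, HISAT2 2.1.0 and StringTie 1.3.6. The deposited estimated counts are whole numbers that follow TPM times transcript length, so their totals (230431665 to 355411827) are not taken as numbers of fragments, and the depth is unknown. The deposited TPM values are scaled by the authors to transcript length and library. In genes with 1 annotated transcript and over 500 counts, the count divided by TPM and length was the same library constant, to within 1%, in at least 99.96% of genes, which gave the implied transcript lengths.

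The labels gave each library its morpholino and mouse. The fit over all genes used edgeR 4.0.16 (R 4.3.3): quasi-likelihood, robust, TMM, default filter, no block, Benjamini-Hochberg at 0.05. The p-values measure only the spread between these libraries. The mouse pairs the libraries, since both came from 1 animal; after removal of group means, libraries of 1 mouse correlated at 0.06 over all genes and at 0.40 where mean log2 CPM was at least 3. Ratios within a mouse use log2 CPM with a prior count of 2. Tried as well were a block on the mouse, DESeq2 size factors, other filters, DESeq2 1.42.0, limma 3.58.1 on log2(TPM + 1) and log2(TPM + 0.1), and removal of each library. The unblocked edgeR, DESeq2 and limma fits were run on simulated counts with no mouse effect. The blocked fits were not tested in this way. Coordinates come from GENCODE vM21, which holds 36 of the 37 identifiers with the same version; Aak1 differs in version only.

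The genes and lists were chosen with earlier results of these data known. Named are all 37 genes, of the further pathway genes the 4 most abundant and those with an unadjusted p under 0.05 (1 result is not reported here), the top gene of each marker list, and Numb. Gene models overlapping or copied from the 37 were chosen after their values were seen.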

Additional observations from a re-analysis of the deposited data

How the results depend on the processing

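Settings changed no call among the 37 genes or the 79 further pathway genes: edgeR with the mouse as replicate block, DESeq2 size factors, no filter, a CPM of at least 5 in 2 libraries, DESeq2, limma on TPM, counts divided by 4 (chosen after seeing the data) and removal of each library all called 0. That stricter filter left out Dnm1 and Rab4a. Over all genes the calls went from 0 to 10 without a filter, 1 with the stricter filter, 81 with DESeq2, 150 with DESeq2 and the block, and 0 to 1 when a library was left out. Genes of the set with an unadjusted p under 0.05 numbered 2 with the block in edgeR and in DESeq2, and 0 to 1 with a library left out. The median log2 fold change of the set was 0.047 on log2(TPM + 1) and 0.051 on log2(TPM + 0.1), where all genes had 0.027 and 0.044, and -0.10 to 0.013 with a library left out. On either TPM scale 14 genes, against 8 in CPM, were higher in both mice (31.9% of all genes on log2(TPM + 1)) and 9 lower (23.4%). The paralogue order was the same in 4 libraries for 8 of 11 families in TPM and for 10 in CPM per kb of the longest coding transcript.

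Fold changes whose sign turned were as follows. On log2(TPM + 1) and log2(TPM + 0.1) they became Cltc 0.022 and 0.022, Clta 0.054 and 0.055, Cltb 0.063 and 0.063, Eps15l1 0.0029 and 0.0031, Bmp2k 0.048 and 0.051, and Dnm3 0.10 and 0.10; the cause was not tested. With each library left out in turn, log2 fold changes ran over Ap2a2 -0.0082 to 0.12, Ap2b1 -0.26 to 0.014, Cltc -0.17 to 0.11, Clta -0.13 to 0.042, Eps15l1 -0.13 to 0.027, Itsn2 -0.11 to 0.13, Epn1 -0.12 to 0.0056, Epn2 -0.10 to 0.82, Dab2 -0.11 to 0.071, Aak1 -0.13 to 0.20, Bmp2k -0.12 to 0.094, Gak -0.048 to 0.10, Dnm2 -0.024 to 0.13, Snx9 -0.34 to 0.073, Rab5a -0.44 to 0.12, Rab4a -0.29 to 0.50, Rab11b -0.15 to 0.045, Rab11fip5 -0.12 to 0.29, Ehd2 -0.10 to 0.11 and Ehd4 -0.32 to 0.037. The fits with a library left out did not pair the mice, so a difference between the mice enters their log2 fold changes. A lone library was assumed to vary like the other group.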
